A study of Homo sapiens with 16 samples.

Results

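HOX genes encode homeodomain transcription factors and lie in 4 clusters. All 39 protein-coding HOX genes were taken by symbol from the 60676 gene identifiers counted in 2 human melanoma cell lines. On GRCh38 with GENCODE v29 models, the HOXA cluster on chromosome 7 holds 11 of them, HOXB 10 (chr17:48528526-48729178), HOXC 9 (chr12:53938765-54056030) and HOXD 9 (chr2:176092891-176190907). The series asked what replacing methionine with homocysteine in the medium does to melanoma cells, and RNA was counted in 16 libraries, 8 from the line A101D, labelled as methionine dependent, and 8 from the line MeWo, labelled as methionine independent. The 4 groups used here are A101D replicates 1 to 4, A101D replicates 5 to 8, MeWo replicates 1 to 4 and MeWo replicates 5 to 8, numbered as in the sample titles. All were grown in methionine-free, cystine-supplemented medium with dialyzed serum, to which the protocol adds either 200 µM L-methionine (control) or 200 µM L-homocysteine. No label ties either addition to a replicate number, so no medium is assigned to replicates 1 to 4 or 5 to 8. There is 1 line of each kind, so a difference between the lines cannot be told apart from any other difference between these cultures. No label says that replicates are separate cultures, so p-values measure only the spread between these libraries, which may be technical.

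Within a HOX cluster the genes follow each other in the order of their paralog numbers. In the embryo, low-numbered (anterior) genes are used towards the head and high-numbered (posterior) genes towards the tail and the limb tips. HOX proteins bind DNA together with the TALE homeodomain proteins of the PBX, MEIS and PKNOX families. Retinoic acid opens the clusters from their anterior end, Polycomb complexes keep unused HOX genes silent, and Trithorax complexes keep used ones on. Adult skin cells usually keep part of the HOX code of their place in the body.

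Total counts ran from 28910881 to 38961862 per library. SOX10, MITF, PMEL, MLANA, DCT and S100B, which mark melanocytes and melanomas, were present in every library of both lines. The pigment enzymes separated the lines, but in both directions. TYR lay between 1.10 and 1.73 CPM (counts scaled by library size) in A101D and between 283 and 320 CPM in MeWo. TYRP1 lay between 0.249 and 1.74 CPM in A101D and between 2065 and 2603 CPM in MeWo. DCT went the other way, between 1244 and 1895 CPM in A101D and between 423 and 557 CPM in MeWo. Of the 9 markers of other cells, 8 reached at most 2.60 CPM, among them PTPRC (leukocytes) at most 0.274 CPM and EPCAM (epithelium) at most 0.263 CPM. PDGFRB, a fibroblast marker, lay between 6.01 and 9.80 CPM in A101D and at most 0.445 CPM in MeWo, and its part in the HOX differences was not tested. In bulk RNA, fewer cells that use a gene and less RNA of it per cell cannot be told apart.

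Both lines used genes of all 4 clusters, but the HOXB cluster, the largest contributor in A101D, was nearly empty in MeWo. Levels are compared between genes as RPKM, that is CPM per kilobase of annotated exon. Summed over a cluster, HOXB reached 58.5 ± 5.36 RPKM (SD, n = 8 here and for the sums that follow) in A101D and 2.68 ± 0.165 RPKM in MeWo. HOXC reached 41.3 ± 4.08 RPKM in A101D and 23.8 ± 0.768 RPKM in MeWo, and HOXD 24.2 ± 3.49 and 16.6 ± 0.736 RPKM. HOXA had the lowest sum of the 4 in A101D, at 17.3 ± 2.29 RPKM, and stood at 10.7 ± 0.424 RPKM in MeWo. By this measure HOXB made up 41.4% of all HOX RPKM in A101D and 4.98% in MeWo, where HOXC made up 44.3% and HOXD 30.8%. With exon length that no other gene covers on the same strand, the order in MeWo turned, with HOXD at 51.1% and HOXC at 31.9%. HOXB then stood at 33.7% in A101D and 3.30% in MeWo. That alternative divides the same counts by fewer bases, also where the covering gene was not counted, as for HOXD4 and HOXD3. For each of the 4 sums, every A101D library lay above every MeWo library.

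Over the full exon length, the HOX gene with the highest level was HOXB7 in A101D and HOXC10 in MeWo. In A101D, HOXB7 lay between 18.1 and 19.7 RPKM, above every library of the next gene, HOXB2 (9.21 to 15.5 RPKM). HOXB2, HOXC10 (8.81 to 12.9 RPKM) and HOXB9 (7.22 to 11.7 RPKM) overlapped each other. In MeWo, HOXC10 lay between 8.16 and 9.32 RPKM, above HOXD4 (4.95 to 6.10 RPKM), HOXD8 (5.06 to 5.71 RPKM) and HOXC9 (4.56 to 5.83 RPKM), which overlapped each other. Exons of HOXD4 and HOXD3 overlap an annotated gene on the same strand, AC009336.2, over 80.5% and 62.2% of their length, so their RPKM rest on the exon length chosen. Over the uncovered length HOXD4 came first in both lines, at 34.5 RPKM in A101D and 28.8 RPKM in MeWo, an alternative chosen after seeing the data, and HOXB7 and HOXC10 came next. AC009336.2 is not among the identifiers of the deposited tables, so no counts were given to it there. The HOXD4 counts are the same over the uncovered length, divided by 286 in place of 1464 bases.

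**Figure D1:**
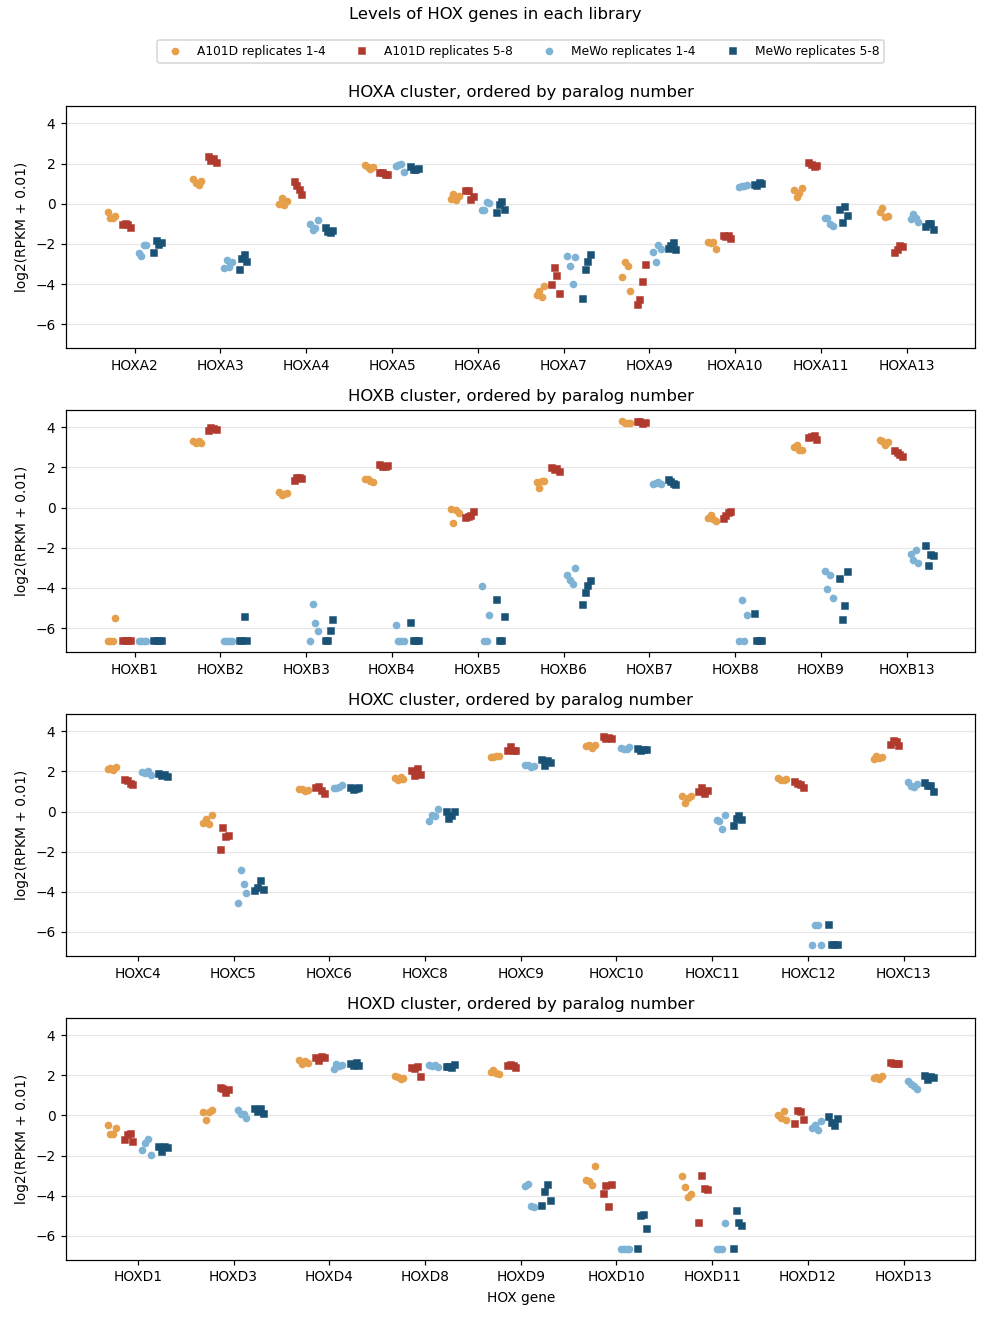
Level of the HOX genes reported here in each of the 16 libraries as log2(RPKM + 0.01), 1 panel per cluster with genes in the order of their paralog numbers and 1 point per library. The MeWo points of the HOXB cluster lie far below those of A101D except at HOXB1, which is near 0 in both lines, and HOXB7 is the least reduced.

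Of the 39 genes, 35 passed the filter on low counts and were tested. The other 4 are HOXA7 (34 counts over the 8 A101D libraries and 72 over the 8 MeWo libraries), HOXB1 (1 and 0 counts), HOXD10 (63 and 5 counts) and HOXD11 (41 and 5 counts). HOXB1 acts in the hindbrain, and HOXD10 and HOXD11 in the limb. A total of 0 in a library allows at most 3 counts. On total counts, without the scaling used for the other CPM, that is 0.0770 to 0.104 CPM from the deepest to the shallowest library.

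Between the lines, 28 of the 35 tested HOX genes were lower in MeWo and 4 were higher. Over all 21569 genes tested, 45.2% were lower and 41.7% higher at the same threshold (limma-voom, Benjamini-Hochberg adjusted p under 0.05). The share of HOX genes lower in MeWo was 80.0%, and their median log2 fold change of MeWo over A101D was -1.36, against -0.04 over all genes tested. Over 2-fold, 19 HOX genes were lower and 2 higher, against 23.7% and 16.1% of all genes tested. For 24 of the 35, no MeWo library fell within the range of A101D, as was so for 55.2% of all genes tested. HOXA5, HOXC4 and HOXC6 did not pass the test. Their log2 fold changes were 0.13 (95% interval -0.01 to 0.26), 0.07 (-0.04 to 0.18) and 0.10 (-0.01 to 0.22).

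All 9 tested HOXB genes were lower in MeWo by over 2-fold with no overlap between libraries, with a median log2 fold change of -5.97. HOXB2, an anterior gene of the hindbrain and neck, had a lowest, median and highest level of 21.5, 28.0 and 36.2 CPM in A101D, and a single count over all 8 MeWo libraries. Against 7856 counts in A101D, that is a depth-scaled ratio of 7764 (95% interval 1393 to 306700, for counting error only). HOXB4, which extends the growth of blood progenitors, had 8.93, 12.6 and 16.5 CPM in A101D (3492 counts) and 2 counts in all of MeWo, a ratio of 1726 (477 to 14250). Each HOXB2 and HOXB4 library of MeWo held at most 1 count, and every A101D library was over 8.9 CPM.

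HOXB3, a neighbour of HOXB2 and HOXB4, stood at 11.3, 15.7 and 20.8 CPM in A101D (lowest, median and highest) and had 13 counts in all of MeWo, between 0 and 6 per library. Its ratio was 335 (196 to 630). HOXB9, a trunk gene, stood at 18.7, 24.7 and 30.3 CPM in A101D and at 0.0280, 0.160 and 0.259 CPM in MeWo (log2 fold change -7.39 ± 0.279 SE, adjusted p = 2.57e-24). HOXB13, the most posterior gene of the cluster and a partner of the androgen receptor in prostate, stood at 19.7, 27.2 and 35.2 CPM in A101D and at 0.420, 0.634 and 0.872 CPM in MeWo (-5.45 ± 0.153, adjusted p = 1.76e-29). For these 3 genes, too, the lowest A101D library was far above the highest MeWo library. HOXB5, HOXB6 and HOXB8 had 8, 47 and 4 counts over the MeWo libraries and 439, 2163 and 409 over the A101D libraries.

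HOXB7, a trunk gene that is often high in tumours, was the least reduced of the 9. It lay at 27.7, 28.5 and 30.1 CPM in A101D and at 3.34, 3.51 and 4.00 CPM in MeWo, with 112 to 131 counts per MeWo library, a log2 fold change of -3.01 ± 0.059 (adjusted p = 1.72e-35) or 8.04-fold lower. On the RPKM scale HOXB7 alone held 2.34 of the 2.68 RPKM that the HOXB cluster had in MeWo.

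Other genes of that locus were also near 0 in MeWo. HOXB-AS1 and HOXB-AS3, noncoding RNAs transcribed inside the cluster, stood at 2.64 ± 1.14 and 5.22 ± 1.48 CPM in A101D (SD, n = 8) and at 1 and 21 counts over all MeWo libraries (log2 fold changes -7.16 and -6.05, adjusted p 8.83e-22 and 2.01e-20). TTLL6, a tubulin polyglutamylase gene next to HOXB13, stood at 12.2 ± 1.07 CPM in A101D and had 14 counts in MeWo (log2 fold change -7.78 ± 0.337, adjusted p = 1.92e-23). SKAP1, beyond the anterior end, was low in both lines, with 122 and 12 counts (-3.46 ± 0.330, adjusted p = 1.66e-12). CALCOCO2, an autophagy receptor gene beyond TTLL6 that was singled out after its values were seen, stood at 86.3 ± 14.0 CPM in A101D and 83.8 ± 2.31 CPM in MeWo and did not pass the test (log2 fold change -0.03 ± 0.027, adjusted p = 0.357). Whether the locus is altered in the DNA of MeWo was not tested.

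In each of the other 3 clusters a gene used in A101D was far lower in MeWo. HOXC12, a posterior HOXC gene, stood at 7.45, 9.52 and 10.6 CPM in A101D (lowest, median and highest) and had 3 counts in all of MeWo, a ratio of 833 (285 to 4043). HOXD9, a limb gene, stood at 7.68, 9.36 and 10.8 CPM in A101D and at 0.0599, 0.0945 and 0.159 CPM in MeWo (log2 fold change -6.37 ± 0.242, adjusted p = 1.90e-25). HOXA3, an anterior gene of the pharynx, stood at 8.26, 13.9 and 21.4 CPM in A101D and at 0.388, 0.539 and 0.680 CPM in MeWo (-4.65 ± 0.147, adjusted p = 3.73e-28). In none of the 3 genes did a MeWo library come near the lowest of A101D.

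Low genes also lay beside some of them. HOXA2 and HOXA4 stood at 0.524 ± 0.0989 and 0.745 ± 0.124 CPM in MeWo (SD, n = 8) and HOXD10 had 5 counts there. In A101D these 3 were low too, at 1.37 ± 0.274 CPM, 2.42 ± 0.727 CPM and 63 counts. Other neighbours were not near 0 in MeWo. HOXD8, beside HOXD9, stood at 14.3 ± 0.615 CPM there, and HOXC11 and HOXC13, beside HOXC12, at 2.38 ± 0.373 and 5.90 ± 0.562 CPM.

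The other HOXC genes of high level differed by less than HOXC12. HOXC13, which drives hair keratin genes and lies next to HOXC12, stood at 14.97, 19.9 and 27.6 CPM in A101D and 4.78, 5.86 and 6.59 CPM in MeWo (-1.76 ± 0.059, adjusted p = 1.81e-27). HOXC9, a trunk gene, stood at 11.1, 12.5 and 15.5 CPM in A101D and 7.66, 8.43 and 9.79 CPM in MeWo (-0.55 ± 0.051, adjusted p = 6.00e-13). HOXC10, a lumbar and hindlimb gene, stood at 20.5, 25.6 and 30.1 CPM in A101D and 19.0, 20.4 and 21.7 CPM in MeWo (-0.33 ± 0.035, adjusted p = 3.04e-11). HOXC13 and HOXC9 did not overlap between the lines, and HOXC10 did. With replicates 1 to 4 alone the HOXC10 difference was -0.09 (adjusted p = 0.106).

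The tested HOXD genes other than HOXD9 were close in both lines, with overlapping libraries. HOXD4, an anterior gene that responds to retinoic acid, stood at 8.75, 9.73 and 11.2 CPM in A101D and 7.25, 8.27 and 8.93 CPM in MeWo (-0.26 ± 0.054, adjusted p = 4.11e-05). HOXD8 was higher in MeWo, at 9.29, 10.1 and 14.2 CPM in A101D and 13.3, 14.2 and 15.01 CPM in MeWo (0.37 ± 0.056, adjusted p = 1.25e-07). HOXD13, the gene of digit patterning, stood at 7.72, 10.9 and 13.5 CPM in A101D and 5.48, 7.40 and 8.79 CPM in MeWo (-0.54 ± 0.056, adjusted p = 1.06e-11). HOXD3 was called lower in MeWo at -0.53 ± 0.078 (adjusted p = 6.98e-08), but with replicates 1 to 4 alone the difference was -0.02 (adjusted p = 0.877).

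HOXA genes differed between the lines in both directions. On the log2 scale, MeWo was lower for HOXA2 (-1.36), HOXA4 (-1.64) and HOXA6 (-0.55). HOXA5, a gene of lung and neck, had the highest RPKM of its cluster in MeWo. It overlapped between the lines, at 4.56, 5.26 and 6.43 CPM in A101D and 5.12, 5.92 and 6.61 CPM in MeWo. HOXA10 and HOXA9, genes of uterus, limb and blood progenitors named here after their values were seen, were the only tested HOX genes over 2-fold higher in MeWo. The untested HOXA7 had a count ratio of A101D over MeWo of 0.467 (95% interval 0.301 to 0.711, for counting error only). HOXA10 stood at 0.742, 1.02 and 1.18 CPM in A101D and 6.59, 6.95 and 7.45 CPM in MeWo (2.77 ± 0.0996, adjusted p = 2.70e-26), and HOXA9 at 0.0610, 0.191 and 0.376 CPM in A101D and 0.381, 0.606 and 0.739 CPM in MeWo (1.68 ± 0.260, adjusted p = 1.90e-07). Neither gene overlapped between the lines, but HOXA9 only narrowly. Its highest A101D library (replicate 2) and its lowest MeWo library (replicate 2) each held 12 counts. HOXA11, directly posterior of HOXA10, was lower in MeWo (-1.97 ± 0.109, adjusted p = 6.43e-20).

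**Figure D2:**
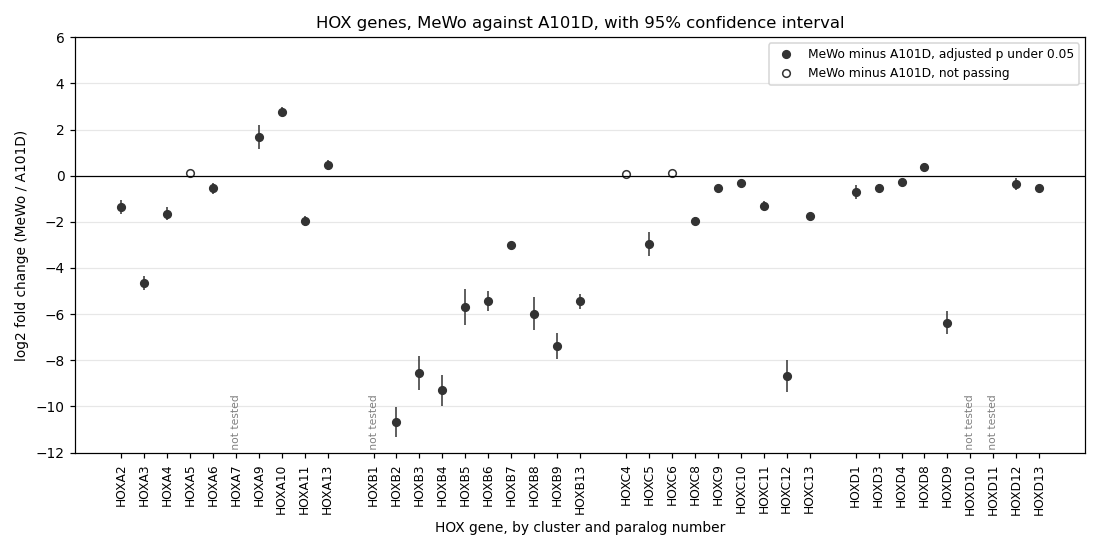
Log2 fold change of MeWo over A101D for tested HOX genes with the 95% confidence interval, filled where the adjusted p was under 0.05. HOXC12, HOXD9, HOXA3 and the HOXB genes other than HOXB7 lie lowest, and HOXA10 and HOXA9 highest. Values of genes near 0 in MeWo depend on the small count added by the test.

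The libraries numbered 5 to 8 differed from those numbered 1 to 4 in A101D at many HOX genes and in MeWo at few. In A101D, 18 of the 35 tested HOX genes rose and 7 fell in replicates 5 to 8. Over all genes tested, 33.1% rose and 32.4% fell, and 51.4% of the tested HOX genes rose. The median log2 fold change of the HOX genes was 0.29, against 0.01 over all genes tested. With total counts in place of TMM scaling, the median of all genes moved by 0.102 log2. The libraries of replicates 1 to 4 and 5 to 8 did not overlap for 24 HOX genes, where 59.6% of all genes had no overlap. Only 4 HOX genes changed by over 2-fold, HOXA3, HOXA11 and HOXD3 upwards and HOXA13 downwards, against 16.6% of all genes in either direction.

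HOXA11 and HOXA13, neighbouring posterior genes that pattern the forearm and the hand, changed in opposite directions in A101D. HOXA11 stood at 3.63, 2.89, 3.35 and 4.01 CPM in replicates 1 to 4 and at 9.46, 8.79, 8.20 and 8.33 CPM in replicates 5 to 8 (log2 fold change 1.32 ± 0.107, adjusted p = 4.84e-14). HOXA13 stood at 3.81, 4.30, 3.13 and 3.23 CPM in replicates 1 to 4 and at 0.884, 0.974, 1.13 and 1.10 CPM in replicates 5 to 8 (-1.81 ± 0.164, adjusted p = 1.03e-12). Every library of replicates 5 to 8 was above every one of 1 to 4 for HOXA11 and below every one for HOXA13.

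HOXA3 and HOXD3 belong to the same paralog group, and both rose. HOXA3 stood at 10.2, 8.65, 8.26 and 9.28 CPM in A101D replicates 1 to 4 and at 21.4, 18.9, 19.9 and 17.6 CPM in replicates 5 to 8 (1.08 ± 0.071, adjusted p = 7.44e-17). HOXD3 stood at 4.00, 2.95, 3.99 and 4.18 CPM in replicates 1 to 4 and at 9.03, 8.77, 7.63 and 8.41 CPM in replicates 5 to 8 (1.17 ± 0.103, adjusted p = 4.99e-13). Neither gene overlapped between these groups. HOXB3, the third tested gene of that paralog group, rose by 0.73 ± 0.069 log2 (adjusted p = 3.74e-12).

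HOXC4 and HOXC5 share 1 start in the RefSeq annotation, and both fell in A101D replicates 5 to 8. In the GENCODE v29 models used for exon length they do not, since HOXC4 starts at chr12:54016931 and HOXC5 at chr12:54032853. GENCODE v29 also holds a second entry named HOXC5, which is not among the members. That entry overlaps exons of HOXC6, which ends at chr12:54030823, so it starts before the HOXC5 model used here. HOXC5 stood at 1.18, 1.38, 1.17 and 1.57 CPM in replicates 1 to 4 and at 0.458, 1.00, 0.722 and 0.770 CPM in replicates 5 to 8 (-0.86 ± 0.214, adjusted p = 5.61e-04). HOXC4, named here after its values were seen, stood at 11.7, 12.01, 11.2 and 12.8 CPM in replicates 1 to 4 and at 8.17, 7.79, 6.99 and 6.68 CPM in replicates 5 to 8 (-0.70 ± 0.076, adjusted p = 1.29e-10). Both genes had no overlap between these groups. The second HOXC5 entry and AC012531.2 cover 59.9% of the HOXC5 exons on the same strand, so reads there may be unassigned or shared. These entries held 3 and 0 counts in A101D.

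The promoters of these genes are shown because HOXA11 and HOXA13 changed in opposite directions and HOXC4 and HOXC5 in the same one. Each is 300 bases around a start, from RefSeq on GRCh38.p14, written 5′ to 3′ on the gene's strand with CpG pairs in capitals. HOXA11 is chr7:27185183-27185482 on the minus strand with 13 CpG, HOXA13 chr7:27200042-27200341 on the minus strand with 44 CpG, and the shared start of HOXC4 and HOXC5 chr12:54016638-54016937 on the plus strand with 15 CpG.
HOXA11: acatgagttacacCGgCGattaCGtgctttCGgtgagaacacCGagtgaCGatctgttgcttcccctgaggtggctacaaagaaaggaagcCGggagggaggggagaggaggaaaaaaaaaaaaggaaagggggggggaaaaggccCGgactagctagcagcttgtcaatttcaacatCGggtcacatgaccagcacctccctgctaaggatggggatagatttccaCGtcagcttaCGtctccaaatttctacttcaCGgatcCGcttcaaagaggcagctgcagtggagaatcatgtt
HOXA13: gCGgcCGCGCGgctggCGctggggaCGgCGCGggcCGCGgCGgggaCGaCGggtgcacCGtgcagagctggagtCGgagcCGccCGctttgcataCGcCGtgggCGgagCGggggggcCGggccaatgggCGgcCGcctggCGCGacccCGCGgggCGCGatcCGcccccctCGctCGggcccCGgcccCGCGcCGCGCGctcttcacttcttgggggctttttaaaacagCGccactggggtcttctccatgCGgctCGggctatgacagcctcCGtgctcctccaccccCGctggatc
HOXC4 and HOXC5: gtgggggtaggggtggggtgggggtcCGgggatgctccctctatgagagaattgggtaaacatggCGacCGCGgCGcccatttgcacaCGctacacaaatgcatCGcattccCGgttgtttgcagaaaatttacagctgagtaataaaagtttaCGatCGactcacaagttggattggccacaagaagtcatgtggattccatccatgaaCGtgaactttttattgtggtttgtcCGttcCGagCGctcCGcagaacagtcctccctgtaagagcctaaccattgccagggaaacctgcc
The HOXA13 promoter has the most CpG of the 27 HOX promoters in the RefSeq table, which cover 20 of the 39 genes and hold 0 to 44 CpG with a median of 22. All 35116 promoters of the table had a median of 14 CpG. The motif TGATTNAT, a letter form of the joint PBX and HOX site, searched on both strands, was present in 2 of the 27 (HOXA2 and HOXD11) or 7.41%, against 2.82% of all promoters. A match is a description of letters and not a bound site, and no methylation value was used here.

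Within HOXB, the genes that changed in A101D were not all in the same direction. HOXB2 stood at 23.0, 21.5, 23.1 and 21.6 CPM in replicates 1 to 4 and at 32.9, 36.2, 35.6 and 33.6 CPM in replicates 5 to 8 (0.63 ± 0.048, adjusted p = 5.72e-15). HOXB4, HOXB6 and HOXB9 rose by 0.69, 0.66 and 0.50 log2. HOXB13 fell, from 35.2, 34.5, 29.7 and 33.4 CPM to 24.8, 23.1, 21.6 and 19.7 CPM (-0.58 ± 0.059, adjusted p = 2.60e-11). HOXB7 stayed between 27.7 and 30.1 CPM in all 8 libraries and did not pass the test (0.01, 95% interval -0.08 to 0.10). HOXB5 and HOXB8 did not pass either. Of the noncoding RNAs of that locus, HOXB-AS1 and HOXB-AS3 rose by 1.18 and 0.74 log2 (adjusted p 2.45e-09 and 4.76e-07). HOXB-AS4 fell, from 60 counts over replicates 1 to 4 to 20 over replicates 5 to 8 (log2 fold change -1.685, adjusted p = 1.38e-04).

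In HOXC and HOXD, most genes that changed in A101D rose. HOXC13 stood at 14.97, 16.2, 15.4 and 16.1 CPM in replicates 1 to 4 and at 24.2, 27.6, 26.3 and 23.5 CPM in replicates 5 to 8 (0.70 ± 0.060, adjusted p = 2.64e-13). HOXC8, HOXC9, HOXC10 and HOXC11 rose by 0.29 to 0.39 log2, and HOXC12 fell by 0.28. Without the low-count filter the calls of HOXC8 (adjusted p = 0.0889), HOXC11 (0.0740) and HOXD4 (0.344) were lost. With limma-trend in place of voom weights, a choice made after seeing the data, those of HOXC12 (0.252), HOXB9 (0.206) and HOXD9 (0.190) were lost. HOXD13 stood at 8.12, 8.37, 7.72 and 8.72 CPM in replicates 1 to 4 and at 13.5, 13.4, 13.4 and 13.1 CPM in replicates 5 to 8 (0.69 ± 0.072, adjusted p = 4.61e-11). HOXD4, HOXD8 and HOXD9 rose by 0.17, 0.35 and 0.30 log2, and the HOXD4 call was lost without A101D replicate 2, 4, 5, 7 or 8 (adjusted p 0.0620 to 0.128). In HOXA, HOXA4 rose by 0.67 log2, and HOXA2 and HOXA5 fell by 0.49 and 0.35. Among the 10 tested genes that did not pass were HOXA6, HOXA9, HOXA10, HOXB5, HOXB7, HOXB8, HOXC6, HOXD1 and HOXD12.

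In MeWo, 1 HOX gene rose and 1 fell in replicates 5 to 8, against 6.16% and 7.45% of all genes tested. The share of all called genes that rose was 45.3% with TMM scaling, 33.6% with median-of-ratios factors and 66.3% with total counts. HOXD13 rose, from 7.25, 6.54, 6.14 and 5.48 CPM in replicates 1 to 4 to 8.79, 7.55, 8.37 and 8.04 CPM in replicates 5 to 8 (0.36 ± 0.085, adjusted p = 0.00244). HOXA13 fell, from 2.99, 3.52, 3.08 and 2.66 CPM to 2.26, 2.43, 2.51 and 1.98 CPM (-0.42 ± 0.134, adjusted p = 0.0322). Neither overlapped between the groups, and HOXC10 was the other HOX gene of 3 with no overlap, where 16.6% of all genes had none. The HOXA13 call was lost without MeWo replicate 1, 2, 3, 5 or 8 (adjusted p 0.0551 to 0.144). HOXA13 fell and HOXD13 rose in both lines by the same test.

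**Figure D3:**
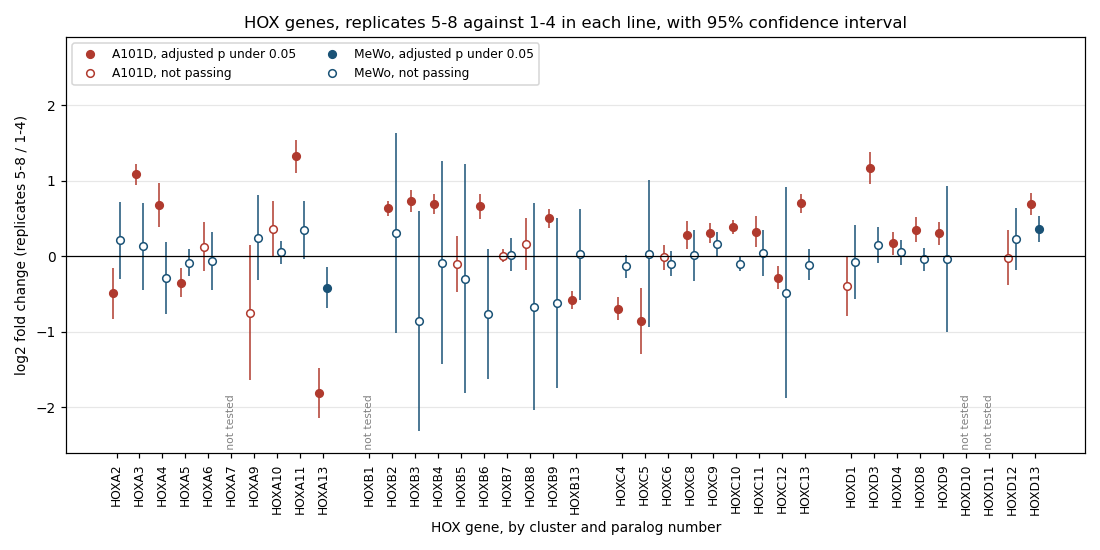
Log2 fold change of replicates 5 to 8 over replicates 1 to 4 with the 95% confidence interval for tested HOX genes, A101D in red and MeWo in blue, filled where the adjusted p was under 0.05. In A101D, HOXA11, HOXD3 and HOXA3 lie highest and HOXA13 lowest, and the wide MeWo intervals belong to genes near 0 there.

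The difference between replicates 5 to 8 and 1 to 4 was itself unequal between the lines for 11 of the 35 HOX genes, 2 higher and 9 lower in MeWo than in A101D, against 25.9% and 23.2% of all genes tested. The 2 were HOXA13 (1.40 ± 0.212, adjusted p = 5.02e-07) and HOXC4 (0.56 ± 0.105, adjusted p = 1.95e-05). The 9 were HOXA3, HOXA4, HOXA11, HOXB6, HOXC10, HOXC13, HOXD3, HOXD8 and HOXD13, between -1.42 (HOXB6) and -0.33 (HOXD13). HOXB6 had only 47 counts over the MeWo libraries. The call of HOXD13 was lost without MeWo replicate 1 (adjusted p = 0.0615). With no low-count filter, the calls of HOXD8 (adjusted p = 0.0542) and HOXD13 (0.117) were lost, and HOXD10 was called.

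For the genes with such unequal differences, the difference between the lines depended on the replicates. Among them, that of HOXA13 and HOXC4 changed sign. HOXA13 was called higher in MeWo over all libraries (0.45 ± 0.106, adjusted p = 1.57e-04). With replicates 1 to 4 alone it was lower in MeWo and did not pass (-0.24, adjusted p = 0.0679), and with replicates 5 to 8 alone it was higher (1.15). HOXC4 was lower in MeWo with replicates 1 to 4 (-0.21, adjusted p = 0.00698) and higher with replicates 5 to 8 (0.35, adjusted p = 8.73e-05). HOXA5, whose differences did not pass as unequal, stood at -0.005 with replicates 1 to 4 (adjusted p = 0.960) and 0.26 with replicates 5 to 8 (adjusted p = 0.0111).

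**Figure D4:**
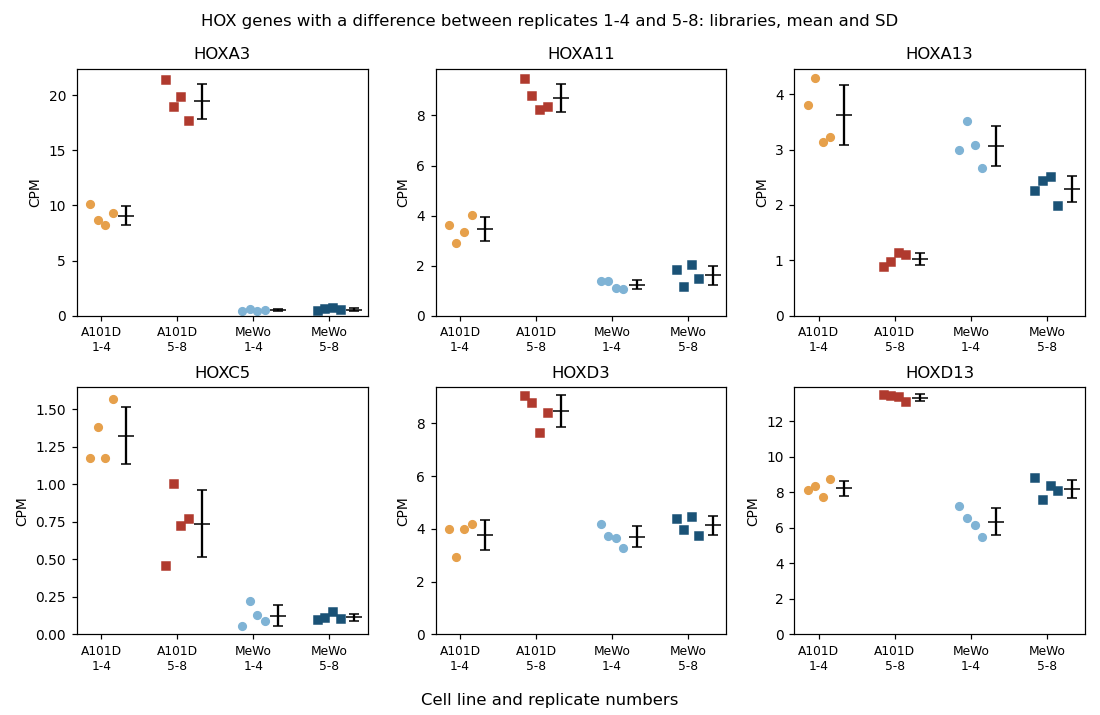
CPM of 6 HOX genes in each library by line and replicate numbers, 1 point per library, with the mean and SD of each group of 4 beside the points. HOXA13 is low in A101D replicates 5 to 8 alone, HOXA3, HOXA11 and HOXD3 are high there, and HOXD13 is higher in replicates 5 to 8 of both lines.

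The genes that work with or on the clusters were counted by list. SDs given with their CPM per line span all replicates, and so include any difference between replicates 1 to 4 and 5 to 8. Over all genes tested, 41.7% were higher and 45.2% lower in MeWo, 33.1% rose and 32.4% fell in A101D replicates 5 to 8, and 6.16% rose and 7.45% fell in those of MeWo. Of 18 noncoding RNAs of the HOX clusters, 15 were tested, and 11 were lower and 1 higher in MeWo, with a median log2 fold change of -1.75. In A101D replicates 5 to 8, 5 rose and 2 fell, and in MeWo none passed. Of the 9 TALE cofactors, all tested, 7 were lower and 2 higher in MeWo (median -0.64). MEIS3 stood at 16.8 ± 1.29 CPM in A101D and 1.21 ± 0.310 CPM in MeWo (-3.82 ± 0.102, adjusted p = 1.02e-30), and PKNOX2 at 39.7 ± 17.5 and 7.91 ± 1.03 CPM (-2.20 ± 0.058, adjusted p = 1.88e-29). Within A101D, PKNOX2 stood at 55.9 ± 1.98 CPM in replicates 1 to 4 and at 23.5 ± 3.19 CPM in replicates 5 to 8. In A101D replicates 5 to 8, 1 TALE gene rose and 7 fell, and 2 fell in MeWo.

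Of 27 Polycomb genes, 15 were higher and 10 lower in MeWo (median 0.12), beside 41.7% and 45.2% of all genes tested. The Polycomb chromobox gene CBX2 stood at 17.3 ± 5.16 CPM in A101D and 64.5 ± 4.37 CPM in MeWo (1.96 ± 0.037, adjusted p = 7.55e-36), and PHF19, which helps to recruit the complex, at 66.4 ± 27.9 and 158.8 ± 7.73 CPM (1.38 ± 0.026, adjusted p = 3.67e-36). Within A101D, CBX2 stood at 22.0 ± 1.45 CPM in replicates 1 to 4 and at 12.5 ± 0.384 CPM in replicates 5 to 8. PHF19 stood there at 92.5 ± 2.64 and 40.4 ± 1.33 CPM. In A101D replicates 5 to 8, 7 Polycomb genes rose and 18 fell, beside 33.1% and 32.4% of all genes. In MeWo 2 rose and 4 fell. Of 12 Trithorax genes and H3K27 demethylases, 6 were higher and 5 lower in MeWo, 4 rose and 6 fell in A101D replicates 5 to 8, and none passed in MeWo. KMT2A, a histone methyltransferase of HOX genes, was lower in MeWo by 0.66 log2, with 51.1 ± 3.23 CPM in A101D and 32.3 ± 1.93 CPM in MeWo. Its complex member ASH2L was higher, with 30.2 ± 7.64 and 45.0 ± 1.64 CPM (0.61).

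Of 14 genes of retinoic acid synthesis, breakdown and reception, 10 were tested. Of these, 3 were higher and 5 lower in MeWo (median -0.68), beside 41.7% higher and 45.2% lower of all genes tested. The receptor gene RARB stood at 17.4 ± 8.15 CPM in A101D and 0.639 ± 0.183 CPM in MeWo (-4.61 ± 0.137, adjusted p = 3.56e-29). The synthesis enzyme ALDH1A3 stood at 195.3 ± 75.5 and 10.8 ± 0.440 CPM (-4.07 ± 0.086, adjusted p = 1.34e-16). In A101D replicates 5 to 8, 6 of these genes rose and 3 fell, and in MeWo 2 rose and 2 fell. Of 14 genes that flank the clusters, 10 were tested, with 3 higher and 5 lower in MeWo, 4 up and 4 down in A101D replicates 5 to 8, and 1 up and 1 down in MeWo. None of the 6 ParaHox genes, the related homeobox genes outside the clusters, was tested, and CDX2 had the most counts of them, 20 over the MeWo libraries.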

How the data were processed

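Total RNA of 16 libraries was sequenced with a stranded kit, as the labels' protocols state. The authors deposited, for each line, a table of counts whose cells join a gene identifier and a whole-number count, per the file headers, and both parts were separated. Per the submitters' processing notes, Trimmomatic 0.39-1, STAR 2.7.1a and featureCounts 2.0.0 were used on GRCh38. Strand setting and annotation release: not given in the sources used here. Reads of overlapping or antisense genes could therefore not be told apart. All columns matched a sample by line and replicate number.

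CPM are on library sizes scaled by trimmed mean of M-values (TMM, trims of 30% and 5%), and RPKM divide them by the merged exon length of GENCODE v29, which holds 58503 of the 60676 identifiers. Genes with at least 0.298 CPM in 4 libraries and 15 counts in all were tested (21569). A model with 1 mean for each of the 4 groups was fitted with limma 3.58.1 in R 4.3.3 (voom weights, robust moderation), with Benjamini-Hochberg adjustment over all genes tested and a threshold of 0.05. The quasi-likelihood count test that had been planned was not run. The plan put limma-voom in its place where the deposited columns, as here with joined cells, do not pass as counts. That was a rule of the plan, since the separated values are whole-number counts. The fit was tested on simulated data. A ratio of counts has an exact 95% interval for counting error.

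The 39 members, the lists and the tests were chosen with earlier results of these data known. Named in full were the 2 genes with the highest RPKM per cluster and line, the 5 called genes with the largest difference between the lines, and up to 5 per line between replicates 1 to 4 and 5 to 8. Values of 1 member are not reported here, though counts and sums include it. Of each list, the 2 called genes with the largest difference between the lines were named. The lists were HOX noncoding RNAs, TALE cofactors, Polycomb, Trithorax, retinoic acid, flanking and ParaHox genes. Alternatives were other scalings, filters, tests and thresholds, replicates left out, and a replicate block.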

Additional observations from a re-analysis of the deposited data

Results flagged for a closer look

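In 3 of 118 groups of 4 libraries checked, 1 library stood apart from the other 3 by Dixon's criterion. Chance flags about 5.9 of 118. HOXB7 was at 30.1 CPM in A101D replicate 1, with the other 3 of replicates 1 to 4 between 27.9 and 28.2 CPM. HOXC9 was at 15.5 CPM in A101D replicate 6, with the others of replicates 5 to 8 between 13.4 and 13.7 CPM. HOXD3 was at 2.95 CPM in A101D replicate 2, with the others between 3.99 and 4.18 CPM.

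For 11 HOX genes the difference of replicates 5 to 8 over 1 to 4 was not equal in the 2 lines, by the interaction term of the limma fit. On the log2 scale, MeWo minus A101D, HOXA13 gave 1.40 and HOXC4 0.56. HOXA3 gave -0.95, HOXA4 -0.96 and HOXA11 -0.98. HOXB6 gave -1.42, HOXC10 -0.49 and HOXC13 -0.81. HOXD3 gave -1.02, HOXD8 -0.39 and HOXD13 -0.33.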

How the results depend on the processing

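Of 3111 recomputed values for single HOX genes, 3051 kept their side of the threshold and, where called, their direction. Values called in neither fit could change sign and still count as kept, as HOXA5 between the lines with replicates 1 to 4 only (-0.005). Among genes called in either fit, HOXA13 and HOXC4 between the lines turned with replicates 1 to 4 only, to -0.24 and -0.21. The count of 32 genes called between the lines fell to 21 when a 2-fold difference was also required, and the 25 called in A101D fell to 4. The 2 genes called in MeWo became 1 without the low-count filter and 1 at an adjusted p under 0.01, and leaving out each replicate in turn gave 1 to 2. With exon length free of other genes on the same strand, the summed RPKM of HOXD became 54.8 in A101D and 41.6 in MeWo. In MeWo that of HOXA became 11.2 and that of HOXC 26.0, so that HOXD and not HOXC had the highest sum there. The counts are the same in that alternative, divided by fewer bases. Same-numbered libraries of the 2 lines did not deviate together (correlations -0.0477 to 0.149, 1 of 8 over 0.1, 3 libraries closest to their own number), so the numbers were not taken as pairs. With the replicate block, 31 genes were called between the lines (HOXA13 was lost) and 12 had unequal differences (HOXB3 was added). The DESeq2 Wald test and the edgeR quasi-likelihood test were not run. Depth limits the HOXB genes, HOXC12 and HOXD9 in MeWo, where a library held 0 to 10 counts for each but HOXB7 and HOXB13.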
